A study of Homo sapiens with 16 samples.

Results

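Of the 19884 protein-coding genes in the deposited gene table, 4 were low in every library labelled iE9 and clearly present in every other library. They were PTPRD, PPM1H, AKAP2 and BCAS4. The rule took genes with at least 1 TPM (transcript abundance scaled to a fixed library total, which accounts for transcript length) in each of the 10 dE9 and WT libraries, which 10473 genes had, and whose highest TPM over the 6 iE9-labelled libraries lay below 0.5 of that lowest value. APP and DNTT were left out by the rule. The 4 genes were chosen by these levels, so their low level under the iE9 label is a description with no test.

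The cells were of JSL1, a Jurkat clone. Jurkat is a widely used human T cell leukemia line. The lines edited with CRISPR-Cas9 were iE9, made to express HDAC7 with exon 9 (6 libraries), and dE9, made to express it without the exon (6 libraries). They were set beside the unedited WT line (4 libraries). HDAC7 is a histone deacetylase that represses target genes through MEF2 factors. In each line, cells had 20 ng/mL of phorbol 12-myristate 13-acetate (PMA), which switches on protein kinase C in place of diacylglycerol, or growth medium alone, with all samples labelled 48 h. That gave 3 PMA and 3 unstimulated libraries in iE9, 3 and 3 in dE9, and 2 and 2 in WT. The labels do not say whether an edited line is 1 clone or whether replicates were separate cultures, so the p-values cover only the spread between libraries, part of which may be technical. Clone and edit cannot be told apart.

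PTPRD and PPM1H both encode protein phosphatases, from unrelated families. PTPRD is a receptor-type tyrosine phosphatase that spans the plasma membrane, known for its role in synaptic adhesion and as a gene lost in several tumours. PPM1H is a serine/threonine phosphatase of the metal-dependent PPM family that acts on Rab GTPases phosphorylated by LRRK2. AKAP2 is an A-kinase anchoring protein, one of the scaffolds that hold protein kinase A at a place in the cell. BCAS4 was named for its amplification in breast carcinoma and is fused to BCAS3 in the MCF-7 line.

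The 4 genes lay on 3 chromosomes. In hg38 coordinates, PTPRD (ENSG00000153707) runs over 2298.5 kb of chromosome 9, from 8314246 to 10612723 on the minus strand. AKAP2 (ENSG00000241978) lies on the other arm of the same chromosome, from 110048598 to 110172512 on the plus strand. PPM1H (ENSG00000111110) covers 12: 62643982 to 62935037 on the minus strand, and BCAS4 (ENSG00000124243) covers 20: 50794894 to 50882676 on the plus strand.

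The sequence at or near the start of each gene's main transcript is shown because the 4 genes were low together. Promoter windows are from RefSeq (GRCh38.p14), with the 50 bases from the RefSeq start in capitals after the 250 bases before it. The RefSeq start lies 3 bases from that of the main transcript in PTPRD, 113 in PPM1H and 0 in BCAS4. The PPM1H window thus ends before its main transcript starts, at 62935037. For AKAP2 no RefSeq window lay near the start of its main transcript. That transcript's first coding exon is shown instead from GENCODE 29, with its start codon in capitals. That exon (chr9:110048700-110048855, plus strand) holds 126 stretches of 31 bases, of which 0 occur in the 3 transcripts of the overlapping gene PALM2-AKAP2.

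PTPRD, chr9:8733897-8734196, minus strand: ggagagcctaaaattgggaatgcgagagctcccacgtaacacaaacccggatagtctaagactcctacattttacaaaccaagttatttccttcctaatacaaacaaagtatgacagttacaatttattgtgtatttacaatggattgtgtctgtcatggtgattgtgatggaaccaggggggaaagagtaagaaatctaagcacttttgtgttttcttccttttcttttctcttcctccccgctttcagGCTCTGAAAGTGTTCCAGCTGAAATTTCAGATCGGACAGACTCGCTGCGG

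PPM1H, chr12:62935101-62935400, minus strand: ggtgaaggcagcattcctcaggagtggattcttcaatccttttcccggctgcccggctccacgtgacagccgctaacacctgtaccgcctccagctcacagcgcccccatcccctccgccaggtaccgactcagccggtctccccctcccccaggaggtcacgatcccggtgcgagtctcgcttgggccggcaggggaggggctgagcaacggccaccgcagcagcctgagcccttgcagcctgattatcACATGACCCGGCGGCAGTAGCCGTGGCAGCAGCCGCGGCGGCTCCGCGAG

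BCAS4, chr20:50794644-50794943, plus strand: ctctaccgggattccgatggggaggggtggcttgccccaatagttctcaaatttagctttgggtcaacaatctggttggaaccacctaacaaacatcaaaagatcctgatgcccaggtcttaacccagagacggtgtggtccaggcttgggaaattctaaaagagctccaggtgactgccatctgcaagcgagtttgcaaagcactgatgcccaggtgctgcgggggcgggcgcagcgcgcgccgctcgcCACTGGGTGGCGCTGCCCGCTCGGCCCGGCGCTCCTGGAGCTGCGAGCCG

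AKAP2, first coding exon: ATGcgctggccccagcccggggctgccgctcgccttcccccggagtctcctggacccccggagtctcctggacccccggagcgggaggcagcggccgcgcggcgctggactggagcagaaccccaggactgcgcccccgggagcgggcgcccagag

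The windows differed in composition. That of PTPRD was 41.7% G and C with 7 CpG pairs, against 67.7% with 24 pairs for PPM1H and 60.0% with 19 pairs for BCAS4, where the median over 35116 RefSeq windows was 58.7% with 14 pairs. PTPRD has other RefSeq starts, whose windows had 75.3% with 40 pairs (start at 10613002) and 45.3% with 4 pairs (start at 8779391). Whether the window printed for PTPRD acts as its promoter was not tested. Both strands were searched for the MEF2 consensus, TGANTCA, TGACGTCA, GCGNGGGCG and CANNTG, motifs chosen after the genes were known. None of the 3 printed windows held the MEF2 consensus, TGANTCA or TGACGTCA, which occur in 3.0%, 7.7% and 1.8% of all windows. GCGNGGGCG occurred once in the BCAS4 window, as GCGGGGGCG, and in 9.4% of all windows. CANNTG occurred at 1 place in the PTPRD window, at 3 in that of PPM1H and at 3 in that of BCAS4, and 68.7% of all windows held it.

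Libraries held 14536537 to 21888896 estimated counts. HDAC7 was checked first, from the TPM of transcripts that hold or skip exon 9. The share with the exon was 42.3 to 63.0% in PMA-treated and 51.8 to 74.8% in unstimulated iE9-labelled libraries, 0.0 to 0.7% and 0.8 to 7.4% in dE9, and 43.1 to 53.8% and 46.6 to 47.5% in WT. With PMA, the iE9-labelled libraries therefore overlapped WT in exon use, and they are called here by their label. HDAC7 itself stood at 164.8 to 210.5 TPM with PMA and 61.0 to 103.3 TPM without it under the iE9 label, against 63.3 to 131.6 and 20.5 to 26.8 TPM in the other lines. The iE9-labelled libraries numbered 1 held 6.9 and 8.75% of counts in mitochondrially encoded genes, against 2.54 to 5.34% elsewhere. Of 13 T cell markers, 12 had at least 1 TPM in every library, the exception being CD2. Summed B cell markers (5 genes) were 52.5 to 539.4 TPM under the iE9 label and 8.94 to 203.1 TPM elsewhere, and those of natural killer cells (5 genes) were 15.2 to 61.6 and 5.76 to 28.2 TPM. In each of these 2 lists only 1 gene had at least 1 TPM in every library. For natural killer cells it was NCAM1, which was called lower under the iE9 label (log2 fold change -0.74 ± 0.2, edgeR adjusted p = 0.027). Myeloid sums (7 genes) were 0.47 to 5.19 TPM under the iE9 label and 0.12 to 25.99 TPM elsewhere. Erythroid sums (4 genes) were 2.15 to 37.29 and 0.0 to 52.02 TPM. None of the markers was at 0 in every library. The part of these differences in the results was not tested.

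PTPRD had the widest gap. Its level was 0.107, 0.112 and 0.037 TPM in PMA-treated and 0.277, 0.126 and 0.035 TPM in unstimulated iE9-labelled libraries. In dE9 it was 4.39, 2.64 and 11.1 TPM with PMA and 3.61, 6.33 and 3.84 TPM without it, and in WT 4.32 and 12.3 TPM with PMA and 4.08 and 3.39 TPM without it. The iE9-labelled libraries all lay under 0.3 TPM, so the gene was close to silent there, while its level in the other lines was near the middle of all protein-coding genes (50.4% of them were higher by the median). The counts behind these values were 3 to 16 per iE9-labelled library and 148 to 351 per other library. In bulk RNA, fewer cells with the transcript and less of it per cell cannot be told apart. The highest iE9-labelled level was 0.105 of the lowest other level.

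PPM1H came second by that ratio, at 0.277. Its level was 0.128, 0.322 and 0.605 TPM with PMA and 0.889, 1.01 and 0.442 TPM without it in the iE9-labelled libraries. In dE9 it was 32.5, 9.32 and 15.1 TPM with PMA and 9.9, 5.04 and 3.63 TPM without it. WT had 26.9 and 25.2 TPM with PMA and 6.02 and 5.77 TPM without it. The gene was thus lowest under the iE9 label in both conditions, and its means were highest in the PMA-treated groups of the other 2 lines. The gap between the means was 54.0-fold against dE9 and 74.1-fold against WT with PMA, and 7.94-fold and 7.56-fold without it.

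AKAP2 was the highest of the 4 under the iE9 label, and in the other lines too. It had 2.57, 10.3 and 17.4 TPM with PMA and 11.8, 16.9 and 18.4 TPM without it. In dE9 it had 54.9, 99.6 and 46.5 TPM with PMA and 45.6, 56.2 and 61.5 TPM without it, and in WT 69.3 and 68.1 TPM with PMA and 46.3 and 50.3 TPM without it. The gap between the groups was smaller than for the phosphatases, at 6.64-fold against dE9 and 6.81-fold against WT with PMA and 3.47-fold and 3.08-fold without it.

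BCAS4 was nearest to the limit, with a ratio of 0.463. It had 0.083, 0.785 and 0.17 TPM with PMA and 0.81, 1.24 and 0.649 TPM without it in the iE9-labelled libraries. In dE9 it had 4.65, 2.68 and 3.04 TPM with PMA and 6.22, 2.77 and 5.58 TPM without it, and in WT 3.17 and 4.68 TPM with PMA and 4.08 and 6.4 TPM without it. The iE9-labelled values rest on 3 to 20 counts per library. They spread more than those of the other lines: the highest was 14.9 times the lowest, against 2.39 times over the dE9 and WT libraries.

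**Figure D1:**
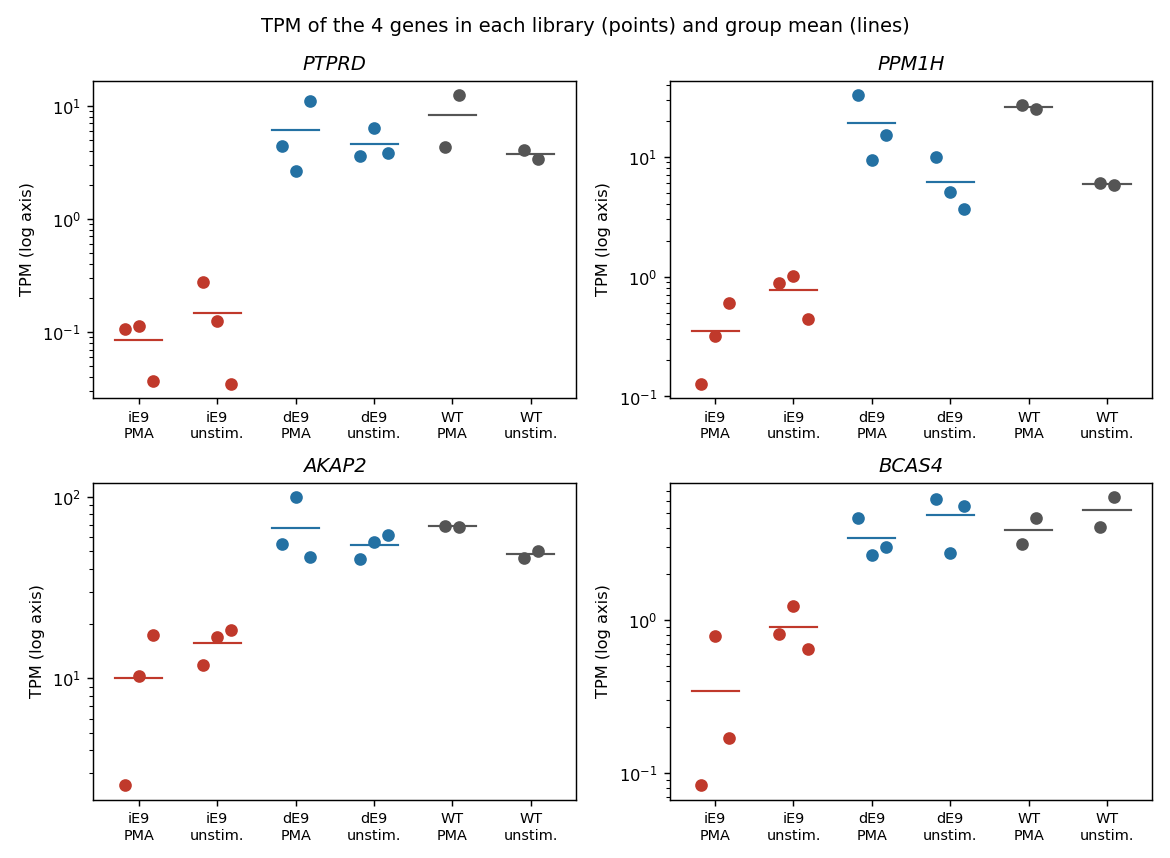
TPM (log axis) of PTPRD, PPM1H, AKAP2 and BCAS4 in each library, as points, with group means as lines, by line and treatment. All 6 iE9-labelled points lie below all 10 dE9 and WT points in each panel, as the rule requires. The means of PPM1H are highest in the PMA-treated dE9 and WT groups.

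Just outside the limit lay EPB41L1, a cytoskeletal protein of the band 4.1 family, with a ratio of 0.505, MYO6, the motor protein myosin VI, with 0.589, and ZCCHC24, a zinc finger gene, with 0.603. EPB41L1 had 0.79 to 2.37 TPM (median 1.85) in the iE9-labelled libraries and 4.69 to 11.69 TPM (median 7.74) in the others. MYO6 had 0.44 to 1.06 TPM (median 0.58) and 1.8 to 11.96 TPM (median 3.7), and ZCCHC24 had 0.34 to 0.64 TPM (median 0.5) and 1.06 to 2.65 TPM (median 1.65). None of the 3 overlapped between the iE9-labelled and the other libraries, and all fell on the far side of the limit. The lack of overlap follows from the ratios by which they were picked. The share of all genes without overlap was not counted.

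**Figure D2:**
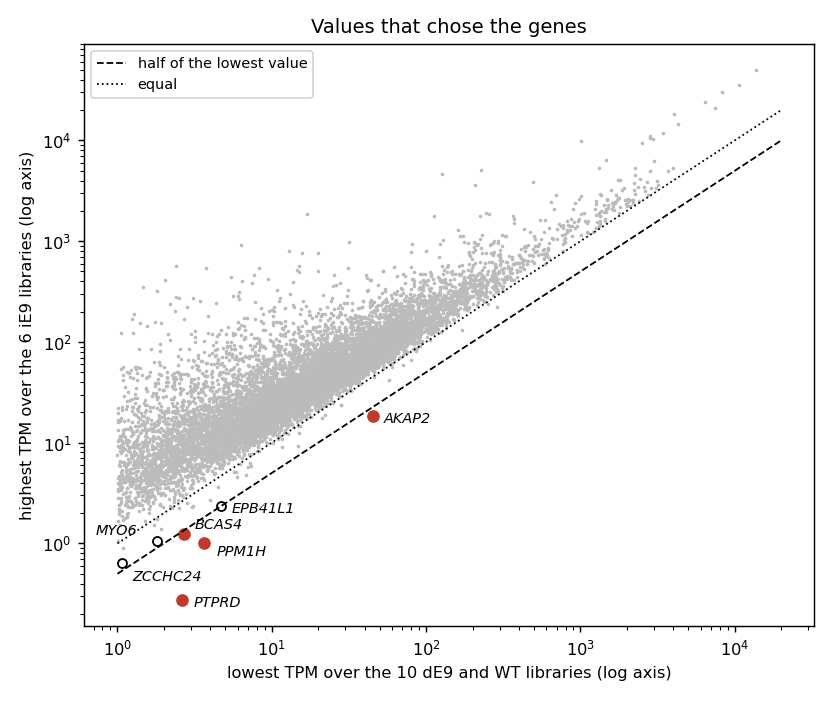
Highest TPM over the 6 iE9-labelled libraries against lowest TPM over the 10 dE9 and WT libraries, both on log axes, for protein-coding genes with at least 1 TPM in each dE9 and WT library. The filled points are the 4 chosen genes, under the dashed line at 0.5 of the lowest value, and the open points are EPB41L1, MYO6 and ZCCHC24 just above it.

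The choice of scale mattered for AKAP2. On TMM-scaled counts (CPM, scaled to library size), which do not account for transcript length, its highest iE9-labelled level was 63.3 CPM and its lowest other level 95.5 CPM, a ratio of 0.663, so it did not meet the limit, although the lines still did not overlap. PTPRD (0.11), PPM1H (0.491) and BCAS4 (0.393) met it on that scale too. SETBP1 and SLC6A15 met it on CPM and not on TPM.

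The transcripts behind AKAP2 account for how its TPM was made up. The 6866-base coding transcript held 95.7% of the gene's counts in the iE9-labelled libraries and 95.6% in the others. A 363-base transcript, annotated as non-coding, held 2.6 and 2.7% of counts. Because TPM divides by length, this short transcript nevertheless made up a median 43.3% of the gene's TPM in the iE9-labelled libraries and 41.9% in the others. The full-length transcript alone stood at 2.26 to 11.7 TPM in the iE9-labelled libraries and 19.5 to 45.9 TPM in the others, with no overlap. Since 97.69% of its 31-base stretches also occur in PALM2-AKAP2, reads could be assigned to either gene, and AKAP2 is uncertain in that respect. PALM2-AKAP2 stood at 0.0 to 0.698 TPM in the iE9-labelled libraries and 0.0 to 0.752 TPM in the others, and the summed TPM of AKAP2, PALM2 and PALM2-AKAP2 was 3.13 to 18.5 and 46.5 to 100.5 TPM.

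**Figure D3:**
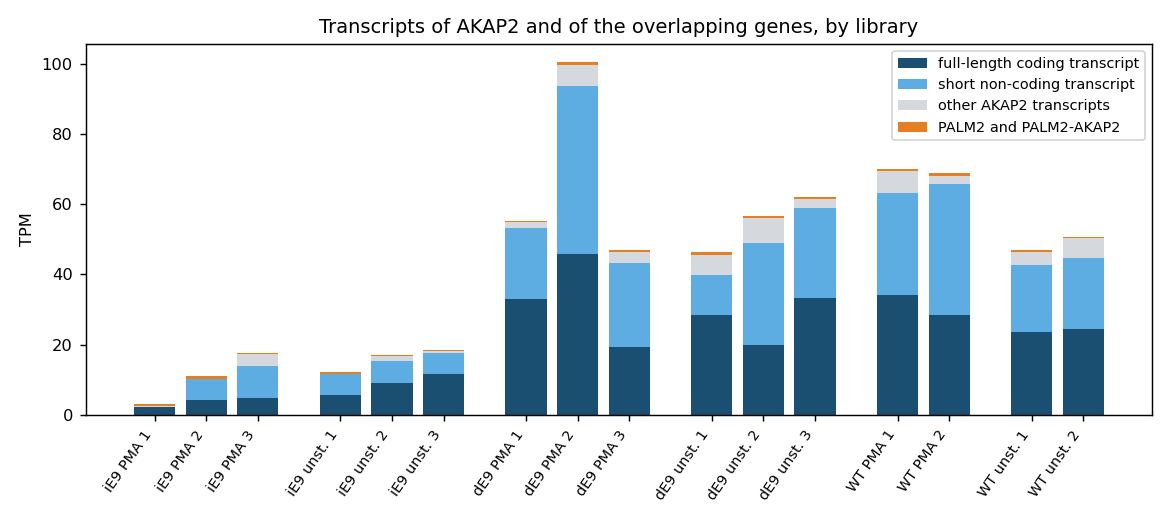
TPM in each library of the full-length coding and the short non-coding AKAP2 transcript, the other AKAP2 transcripts, and PALM2 with PALM2-AKAP2, stacked. The full-length and the short transcript make up most of each bar, and the 6 iE9-labelled bars, at 3.13 to 18.5 TPM in all, are below the other 10, at 46.5 to 100.5 TPM.

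In the other 3 genes, as in AKAP2, single transcripts were less clearly apart than gene totals. The 6353-base main transcript of PPM1H held 100.0% of the gene's counts in the iE9-labelled libraries and 99.8% in the others, with at most 1.01 TPM and at least 1.96 TPM, a ratio of 0.515. The 1378-base transcript of BCAS4, with 36.0 and 40.3% of the gene's counts, reached 0.59 TPM in an iE9-labelled library and was as low as 0.49 TPM in a dE9 or WT library, so the lines overlapped for this transcript. Of the counts of PTPRD, 95.7% in the iE9-labelled libraries (46.0 counts in all) and 78.5% in the others (2215 counts) fell to 8 transcripts. Their annotated starts lie within 100 bases of that of the main transcript, where the window printed for the gene lies. Transcripts that start elsewhere in PTPRD had 2.0 counts in the iE9-labelled libraries and 475.8 in the others. These sums cover 6 iE9-labelled and 10 other libraries, and the rule, which used the gene's total, sets how high either could be under the iE9 label.

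The rule did not compare PMA-treated with unstimulated libraries. It used the level of each of them, however, so the tests below are not independent of how the genes were chosen. The response to PMA was tested with edgeR's quasi-likelihood test over 18073 genes, with Benjamini-Hochberg adjustment. PPM1H rose with PMA in dE9 and in WT. In dE9 it averaged 19.0 ± 12.0 TPM with PMA and 6.19 ± 3.29 TPM without it (SD, n = 3 each), a log2 fold change of 1.83 ± 0.54 (SE, edgeR adjusted p = 0.0163). One unstimulated dE9 library, with 9.9 TPM, was above one PMA-treated library, with 9.32 TPM. In WT it averaged 26.0 ± 1.25 TPM with PMA and 5.89 ± 0.18 TPM without it (SD, n = 2 each), a log2 fold change of 2.08 ± 0.66 (SE, edgeR adjusted p = 0.0353). The WT groups did not overlap. Of all tested genes, 39.1% were likewise higher with PMA in WT without overlap. PPM1H was the 1 gene of the 4 called higher in each line, beside 17.1% of all tested genes called higher in dE9 and 11.1% in WT. The call in WT was lost without any 1 of the 4 WT libraries (log2 fold changes of 1.98 to 2.22), and that in dE9 without unstimulated library 2 (1.46), unstimulated library 3 (1.64) or PMA-treated library 1 (1.18).

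In the iE9-labelled line the same gene pointed the other way. PPM1H averaged 0.352 ± 0.24 TPM with PMA and 0.78 ± 0.298 TPM without it (SD, n = 3 each), a log2 fold change of -1.3 ± 0.64 that did not pass (edgeR adjusted p = 0.147). Libraries 1 and 2 were lower with PMA and library 3 was higher. With the library number as a block within each line, since same-numbered libraries deviated together in both edited lines, the change was -1.33 ± 0.42 (edgeR adjusted p = 0.0297).

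AKAP2 fell with PMA in the iE9-labelled line. It averaged 10.1 ± 7.42 TPM with PMA and 15.7 ± 3.43 TPM without it (SD, n = 3 each), a log2 fold change of -1.34 ± 0.36 (SE, edgeR adjusted p = 0.0129). It was the 1 gene of the 4 called lower there, beside 14.4% of all tested genes. In gene TPM the groups overlapped: PMA-treated library 3, with 17.4 TPM, was above unstimulated libraries 1 and 2. The test used counts, which were 172.0 to 459.1 with PMA and 551.3 to 959.5 without it. The full-length transcript had 2.26, 4.25 and 4.98 TPM with PMA and 5.85, 9.1 and 11.7 TPM without it. The overlap is thus particular to gene TPM, to which the short transcript adds much. The call was lost without unstimulated library 3 (-1.07) or without PMA-treated library 1 (-1.07), which had the lowest level and 1 of the 2 high mitochondrial shares. In the other lines AKAP2 gave log2 fold changes of 0.25 ± 0.35 in dE9 (edgeR adjusted p = 0.611) and 0.26 ± 0.43 in WT (edgeR adjusted p = 0.701).

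PTPRD and BCAS4 passed in none of the lines. For PTPRD the log2 fold changes with PMA were -0.4 ± 0.53 in the iE9-labelled line, 0.4 ± 0.38 in dE9 and 0.57 ± 0.47 in WT. For BCAS4 they were -0.99 ± 0.55, -0.34 ± 0.47 and -0.74 ± 0.57. Its TPM was lower with PMA in all 6 same-numbered pairs of the edited lines, by log2 ratios of -3.28 to -0.05. In WT it was lower by -0.37 and -0.45 when set by number. The PMA-treated and unstimulated groups overlapped in TPM in each line. The share of all genes lower in every pair was not counted. The 95% intervals reached -2.17 to 0.19 for BCAS4 in the iE9-labelled line and -1.97 to 0.48 in WT, so a fall of more than 1 on the log2 scale lay within them.

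**Figure D4:**
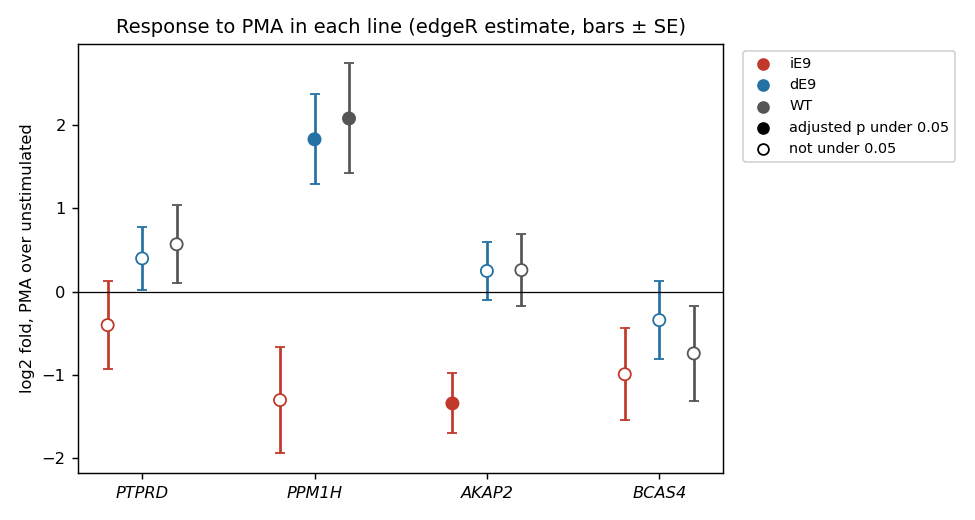
Log2 fold change of PMA over unstimulated cells for each gene in the iE9-labelled, dE9 and WT lines, as edgeR estimates with bars of ± SE. Filled points have an adjusted p under 0.05: PPM1H in dE9 and WT, which rose, and AKAP2 in the iE9-labelled line, which fell.

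The difference in response between lines was tested directly. For PPM1H the response under the iE9 label minus that in dE9 was -3.13 ± 0.83 on the log2 scale (95% interval -4.91 to -1.36, edgeR adjusted p = 0.301), and minus that in WT it was -3.38 ± 0.92 (-5.34 to -1.43, edgeR adjusted p = 0.492). For AKAP2 it was -1.6 ± 0.5 against dE9 (edgeR adjusted p = 0.479) and -1.6 ± 0.56 against WT (edgeR adjusted p = 0.701). These 2 comparisons share the iE9-labelled libraries. None of the 4 genes and 0 of all genes (0.0%) passed in either comparison, while 1239 genes had an unadjusted p under 0.05 against dE9 and 1022 against WT. DESeq2 called 136 genes against dE9 and 62 against WT, PPM1H in each (DESeq2 adjusted p = 0.0167 and 0.0334). With the block within lines, edgeR called PPM1H against dE9 (adjusted p = 0.0438) and not against WT (adjusted p = 0.0561).

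The dE9 line was also set against WT for the 4 genes. The rule kept only genes well above the iE9-labelled level in every dE9 and WT library. A gene that was much lower in dE9 would have been left out, so this comparison cannot show whether loss of the exon lowers such genes. None of the 4 genes passed with or without PMA, and edgeR called 0 of 18073 genes (0.0%) in either condition. Genes with an unadjusted p under 0.05 numbered 459 with PMA and 560 without it, and DESeq2 called 9 and 21. The log2 fold changes of dE9 over WT with PMA were -0.11 ± 0.43 for PTPRD, -0.43 ± 0.57 for PPM1H, 0.11 ± 0.39 for AKAP2 and 0.1 ± 0.52 for BCAS4. Without PMA they were 0.05 ± 0.43, -0.18 ± 0.59, 0.12 ± 0.39 and -0.3 ± 0.52 in the same order. The 95% intervals ran as far as -1.65 for PPM1H with PMA, so a difference of that size is not excluded by these libraries.

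Genes near the 4 were examined to see whether the low level extended along the chromosome. The fit compared the iE9-labelled libraries with the mean of dE9 and WT, in which 7.56% of all tested genes were called higher and 5.89% lower. The nearest tested protein-coding gene on each side of each of the 4, where its start lay within 500 kb, was taken, which gave 5 genes, of which 1 was called lower: TXN, which encodes the redox protein thioredoxin, 208.0 kb from the AKAP2 start, with 148.6 to 490.8 TPM (median 287.2) in the iE9-labelled libraries, against 316.3 to 588.5 TPM (median 433.9) in the others. Its log2 fold change was -0.54 ± 0.15 (edgeR adjusted p = 0.0308), and the call was lost without any 1 of 6 libraries, which were both iE9-labelled libraries numbered 1, both unstimulated WT libraries, PMA-treated WT library 1 and unstimulated dE9 library 1. PARD6B, a cell polarity gene 63.4 kb from BCAS4, gave -0.13 ± 0.2, and ADNP, a homeobox gene 136.5 kb away on the other side, gave -0.06 ± 0.1. MON2, a membrane trafficking gene near PPM1H, gave 0.39 ± 0.15, and PALM2-AKAP2, which overlaps AKAP2, gave -0.01 ± 0.53. None of these 4 passed.

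Within 1 Mb of the gene bodies, 32 protein-coding genes were tested, of which 1 was called higher and 6 lower, with a median log2 fold change of -0.12, beside 0.02 over all tested genes. Among the called genes the largest fall was that of PTPN3, a non-receptor tyrosine phosphatase 550.3 kb from AKAP2, with 0.16 to 1.26 TPM (median 0.2) in the iE9-labelled libraries, against 0.41 to 4.59 TPM (median 1.19) in the others (log2 fold change -2.91 ± 0.35, edgeR adjusted p = 0.000184). KCNG1, a potassium channel gene near BCAS4, gave -4.01 ± 1.34 and did not pass (edgeR adjusted p = 0.0599). It had 0.0 to 0.08 TPM (median 0.0) in the iE9-labelled libraries and 0.0 to 2.01 TPM (median 0.11) in the others. ATP9A, a phospholipid flippase gene 973.7 kb from BCAS4, gave -2.41 ± 0.44 (edgeR adjusted p = 0.00311). Its levels overlapped, at 0.12 to 0.89 TPM (median 0.2) in the iE9-labelled libraries and 0.09 to 19.51 TPM (median 0.68) in the others. FAM19A2 near PPM1H (-0.83 ± 0.18), and RNF114 (-0.32 ± 0.09) and NFATC2 (-0.35 ± 0.09) near BCAS4, were lower by less, and SVEP1 near AKAP2 was higher (1.55 ± 0.41). DMAC1, the 1 gene tested near PTPRD, gave -0.05 ± 0.14 and did not pass. The 4 genes gave -4.73, -4.4, -2.32 and -2.97 in the same fit for PTPRD, PPM1H, AKAP2 and BCAS4.

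**Figure D5:**
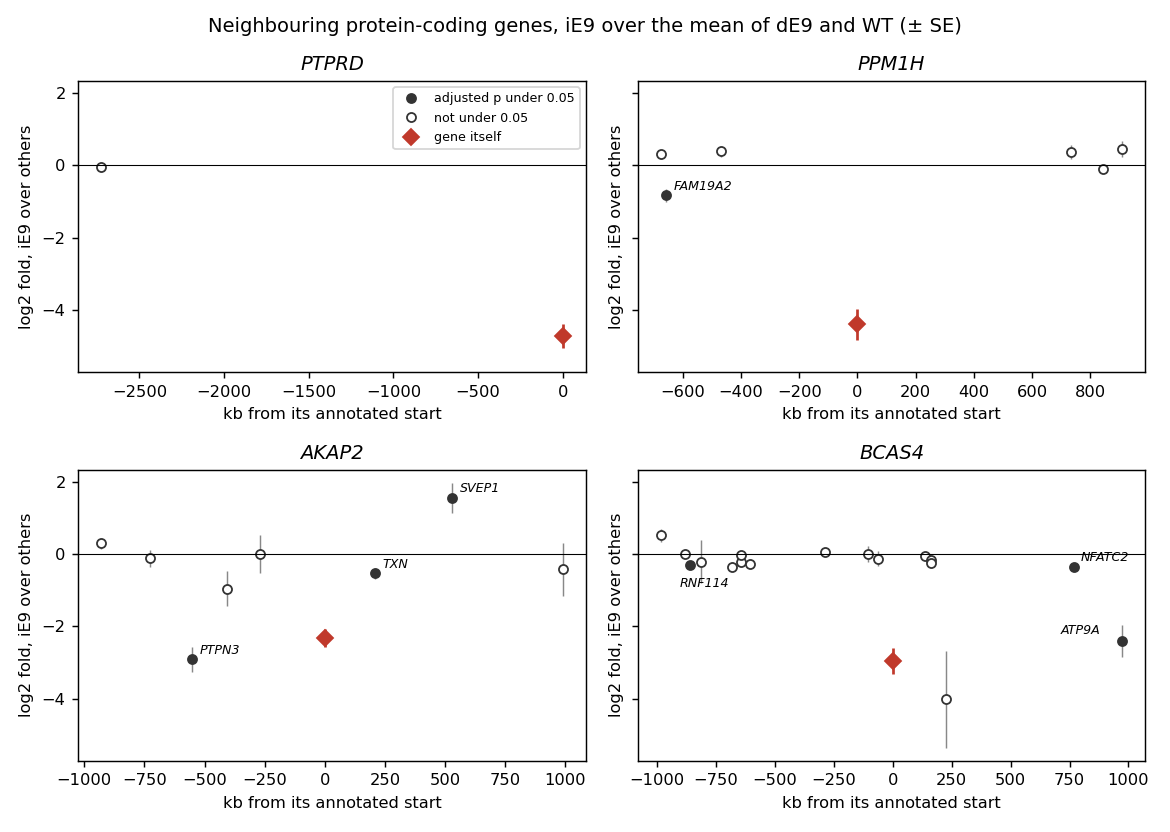
Log2 fold change (± SE) of the iE9-labelled libraries over the mean of dE9 and WT for tested protein-coding genes within 1 Mb of each of the 4 genes, by distance in kb from the gene's annotated start. Diamonds are the 4 genes, at -4.73 to -2.32, and filled points are neighbours with an adjusted p under 0.05. Among the neighbours PTPN3, ATP9A and the open point of KCNG1 lie lowest.

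The families of the 4 genes were compared in the same fit, with the genes themselves left out. The families were chosen after the 4 genes were known. Of 11 other receptor-type tyrosine phosphatases tested, 3 were called lower and 1 higher, with a median log2 fold change of -0.1. PTPRN2, found in secretory granules, had 0.13 to 1.2 TPM (median 0.23) in the iE9-labelled libraries, against 0.79 to 3.92 TPM (median 1.97) in the others (-2.63 ± 0.37, edgeR adjusted p = 0.000536). PTPRU (-1.98 ± 0.29) and PTPRM (-3.05 ± 0.62), both of the cell adhesion type, were the others called lower. Their levels overlapped. PTPRU had 0.96 to 4.43 TPM in the iE9-labelled libraries and 2.58 to 22.82 TPM in the others, and PTPRM had 0.08 to 1.34 and 0.04 to 5.43 TPM. PTPRC, the leukocyte antigen CD45, was called higher, with 400.6 to 1056 TPM (median 652.3) in the iE9-labelled libraries, against 222.1 to 666.7 TPM (median 352.7) in the others (0.87 ± 0.22, edgeR adjusted p = 0.0182).

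Of 10 other PPM1 phosphatases tested, PPM1L was called higher (0.92 ± 0.22, edgeR adjusted p = 0.0152) and PPM1E lower (-0.89 ± 0.27, edgeR adjusted p = 0.0416), with a median of -0.09. Among 12 other A-kinase anchoring proteins, AKAP13 was called higher (0.64 ± 0.18, edgeR adjusted p = 0.0311) and 0 lower, with a median of 0.17. None of 9 other BCAS and BLOC-1 genes was called, with a median of -0.22.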

How the data were processed

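Polyadenylated RNA of 16 libraries was sequenced. The submitters' processing notes name Salmon, DESeq2 and hg38, and versions and strandedness are not given in the sources. The authors deposited estimated counts, TPM and effective lengths per transcript, per the file headers, and a gene TPM table whose values equal the transcript sums. All 205870 transcripts matched GENCODE 29.

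Counts were summed per gene, rounded, and tested with edgeR 4.0.16 in R 4.3.3 (quasi-likelihood F test, two-sided, TMM, 6 groups, all libraries, filterByExpr), which kept 18073 of 33304 genes with a count. Called means an adjusted p under 0.05 over all genes. The scripts were tested on simulated counts. DESeq2 1.42.0, other size factors, no filter, replicate blocks and leaving out libraries were alternatives. Totals of 14536537 to 21888896 counts limit precision for genes at a few counts.

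Replicates did not agree within sampling noise (lowest chi-square per degree of freedom 7.1) and each counted once. Same-numbered PMA and unstimulated libraries deviated together in the iE9 line (r = 0.44, 0.23 and 0.19) and in dE9 (0.3, 0.3 and 0.24), where the numbers were taken to pair libraries, and by 0.07 in WT. Unlike-numbered libraries gave r = -0.31 to 0.15 in iE9 and -0.19 to -0.04 in dE9. In iE9, PMA-treated library 3 gave 0.15 with unstimulated library 2, close to its 0.19 with library 3, so pairing there is less clear. The block within lines was added after seeing the data.

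The genes, lists and tests were chosen with earlier results of these data known. Each of the 4 genes is named, with the 3 nearest outside the limit, up to 6 called neighbours per direction and up to 3 called genes per list by adjusted p. Genes of the 4 families were named where called. Promoters came from RefSeq for 3 of the 4 genes by symbol. Isoform calls of overlapping genes depend on how Salmon splits shared reads.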

Additional observations from a re-analysis of the deposited data

Results flagged for a closer look

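AKAP2 was picked out because its response to PMA pointed opposite ways in every numbered library of the iE9-labelled and WT lines. In the iE9-labelled line all 3 PMA-treated libraries were lower than the unstimulated library of the same number, by log2 ratios of TPM of -2.2, -0.71 and -0.08, while both WT libraries were higher, by 0.58 and 0.44. In WT the numbers were not taken to pair libraries (r = 0.07). The share of all genes with this pattern was not counted. In iE9-labelled library 3 the full-length transcript alone had 4.98 TPM with PMA and 11.7 TPM without it. The dE9 libraries were mixed, at 0.27, 0.83 and -0.4, so library 3 of that line was lower with PMA. The edgeR test of the difference gave a log2 value of -1.6 ± 0.56 and did not pass (adjusted p = 0.701), while with no filter on low counts it gave -1.61 ± 0.34 and passed (edgeR adjusted p = 0.000675). No group holds enough libraries for a test of single outlying values.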

How the results depend on the processing

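Of the 160 log2 fold changes of the 4 genes recomputed with other size factors, DESeq2, no filter on low counts, replicate blocks or without both iE9-labelled libraries numbered 1, 151 kept their direction and their side of the threshold and 9 newly passed. With no filter, 2 of the 4 genes (PPM1H and AKAP2) were called lower with PMA under the iE9 label, beside 5290 of 33304 genes called in either direction. The same 2 were called lower in the difference in response against dE9, beside 480 genes called, and against WT, beside 292, where AKAP2 gave -1.61 ± 0.34 (edgeR adjusted p = 0.000675). With DESeq2 that difference had 1 called lower (PPM1H) against each line, beside 136 and 62 genes called. With the replicate block within lines, 2 were called lower with PMA under the iE9 label (PPM1H and AKAP2), beside 7200 of 18073 genes called and 4892 without the block, and 1 in the difference against dE9 (PPM1H), beside 61 genes and 0 without the block, while the block over all libraries changed no call of the 4 genes (PPM1H with PMA in WT gave 2.09 ± 0.62). Among neighbours, 1 was called higher with no filter, and 0 were called lower without both iE9-labelled libraries numbered 1. Of listed genes, 37 were called higher without those libraries, against 76, and 36 lower with DESeq2 and 45 with no filter, against 21. The causes were not tested.

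A limit of 1/3 in place of 0.5 left 2 genes (PTPRD and PPM1H) and 1/4 left 1 (PTPRD). A lowest TPM of 0.5 or 2 left the same 4, and CPM gave 5 genes, 3 of them shared. With 1 library left out the rule found 4 to 8 genes, always with the same 4, and 8 without PMA-treated dE9 library 3. Leaving out 1 library, the genes called were 0 to 1 higher with PMA in WT, 0 to 1 higher in dE9 and 0 to 1 lower under the iE9 label, and neighbours 0 to 1 in each direction. For uncalled comparisons whose sign turned, the log2 fold change ran from -0.06 to 0.54 (AKAP2, PMA in dE9), -0.79 to 0.24 (PTPRD, PMA under the iE9 label), and -0.89 to 0.15 (BCAS4, response against WT). For dE9 over WT with PMA it ran from -0.48 to 0.22 (PTPRD), -0.24 to 0.4 (AKAP2) and -0.33 to 0.33 (BCAS4), and without PMA from -0.02 to 0.16 (PTPRD), -0.99 to 0.19 (PPM1H), -0.03 to 0.3 (AKAP2) and -0.61 to 0.11 (BCAS4). PTPRD and BCAS4 had 3 to 20 counts in each iE9-labelled library, which limits their PMA response there.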

Other observations

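Other genes of these cells were followed through 18 gene lists in the same fit of iE9-labelled libraries against the mean of dE9 and WT. Of 371 listed genes tested, 76 were called higher and 21 lower, with a median log2 fold change of 0.22, beside 0.02 over all tested genes, of which 7.56% were called higher and 5.89% lower. Without the iE9-labelled libraries numbered 1 the count called higher was 37, and the count called lower was 36 with DESeq2 and 45 with no filter. Calls were mostly higher among T cell co-receptors and surface molecules (15 of 34 higher, 2 lower), lymphocyte adhesion genes (10 of 29 higher, 1 lower), cytokine receptors (10 of 24 higher, 0 lower), antigen presentation genes (8 of 15 higher, 0 lower) and apoptosis regulators (8 of 18 higher, 1 lower). Thymocyte transcription factors and rearrangement genes were split, with 7 of 32 higher and 7 lower, and 0 of 23 cell cycle genes were called. The remaining 9 lists apart from the HDAC and MEF2 lists had 0 to 5 genes called higher and 0 to 4 lower each. In the list of HDACs and co-repressors, 0 of 19 were called higher and 3 lower. HDAC9, a class IIa deacetylase like HDAC7, had 0.02 to 0.77 TPM (median 0.19) in the iE9-labelled libraries, against 0.28 to 8.64 TPM (median 4.04) in the others (-2.9 ± 0.58, edgeR adjusted p = 0.0051). CTBP2, a co-repressor, gave -4.41 ± 1.28, with 0.0 to 0.47 TPM (median 0.21) in the iE9-labelled libraries and 0.27 to 47.26 TPM (median 3.92) in the others. HDAC11 gave -0.58 ± 0.15, with 3.54 to 8.22 and 4.76 to 9.77 TPM. The levels of HDAC9, CTBP2 and HDAC11 each overlapped between the iE9-labelled and the other libraries. In the MEF2 and NR4A list of 11 tested genes, the nuclear receptor NR4A2 was called lower (-2.22 ± 0.47, edgeR adjusted p = 0.00713). It was low throughout and overlapped, at 0.0 to 0.43 TPM (median 0.17) in the iE9-labelled libraries and 0.05 to 1.95 TPM (median 0.36) in the others. The acetyltransferase gene CREBBP was called higher (0.53 ± 0.17, edgeR adjusted p = 0.0492).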
